A study of Mus musculus with 3 samples.

Results

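Keratins are the intermediate filament proteins of epithelial cells, and their genes were read here on 3 microarrays of cultured mouse cells. Members were all probes, other than control probes, whose RefSeq accession belongs to a gene named Krt followed by digits alone. The scanner files carry no gene names, so accessions alone named the probes. This gave 49 keratin genes with 59 probes, out of 20886 named genes and 39429 probes in all. Of these genes 39 had 1 probe and 10 had 2 probes, each spotted once per array. Keratins with a letter after the number, such as Krt6a, fall outside this rule.

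The cells came from the erectile tissue of C57BL/6 mice and were labelled as primary endothelial cells, grown in medium with 20% fetal bovine serum, heparin and VEGF-A at 5 ng/ml. They were kept for 48 h in 5 mmol glucose (normal glucose), in 30 mmol glucose (high glucose), or in 30 mmol glucose with added DKK2, a secreted modulator of Wnt signalling of unstated dose. Each array carried a pool of 3 RNA samples, so each condition had 1 array, and the 3 arrays were on 1 slide. There was no replicate check and no p-value, array position and condition cannot be told apart, and the errors below are the scanner's technical errors (SD) alone. Fibroblast, smooth muscle and macrophage markers were above background on each array, beside 12 to 14 of 14 endothelial markers. In such bulk RNA, a change in the number of cells of a type and a change in RNA per cell cannot be told apart.

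A keratin filament is built from a type I and a type II chain in equal parts, so the genes are read best as partners. Simple epithelia make Krt8 with Krt18, often with Krt7, Krt19 or Krt20. Stratified epithelia make other pairs, such as Krt5 with Krt14 in the basal layer and Krt1 with Krt10 above it, and hair follicles make a further set. Endothelial cells and fibroblasts are known for vimentin filaments. In the mouse most type I genes lie in a cluster on chromosome 11 and the type II genes on chromosome 15, where the type I gene Krt18 sits next to its partner Krt8. Among the members 25 genes were on chromosome 11 and 24 on chromosome 15.

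The bases just before the annotated start are shown for the keratins at the centre of the results: the simple pair Krt18 and Krt8, their companion Krt7, and Krt76, the keratin outside the simple group with the largest difference with DKK2. Each run is the 250 bases upstream, 5′ to 3′ on the gene's own strand, from RefSeq in build GRCm38.p6. Capitals mark the motifs found among 4 searched on both strands: the TATA box, searched as TATAAA, the GC box, searched as GGGCGG, the AP-1 site, searched as TGANTCA, and the core of the TCF/LEF site of Wnt signalling, searched as CTTTGA. Their places are chr15:102027966-102028215 (plus strand) for Krt18, chr15:102004343-102004592 (minus strand) for Krt8, chr15:101412153-101412402 (plus strand) for Krt7 and chr15:101892921-101893170 (minus strand) for Krt76.
Krt18: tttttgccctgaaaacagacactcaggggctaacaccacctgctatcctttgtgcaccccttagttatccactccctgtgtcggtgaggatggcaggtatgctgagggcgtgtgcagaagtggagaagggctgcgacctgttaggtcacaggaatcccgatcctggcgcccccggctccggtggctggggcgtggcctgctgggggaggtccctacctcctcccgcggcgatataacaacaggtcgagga
Krt8: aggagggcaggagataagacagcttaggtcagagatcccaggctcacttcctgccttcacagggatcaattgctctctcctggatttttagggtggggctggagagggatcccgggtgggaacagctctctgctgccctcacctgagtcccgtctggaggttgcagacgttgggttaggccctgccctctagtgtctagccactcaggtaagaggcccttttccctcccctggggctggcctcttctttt
Krt7: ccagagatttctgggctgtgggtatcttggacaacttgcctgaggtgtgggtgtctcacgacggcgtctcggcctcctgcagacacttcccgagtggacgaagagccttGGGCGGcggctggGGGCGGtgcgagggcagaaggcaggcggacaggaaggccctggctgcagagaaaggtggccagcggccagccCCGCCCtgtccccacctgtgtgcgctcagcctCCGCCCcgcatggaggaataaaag
Krt76: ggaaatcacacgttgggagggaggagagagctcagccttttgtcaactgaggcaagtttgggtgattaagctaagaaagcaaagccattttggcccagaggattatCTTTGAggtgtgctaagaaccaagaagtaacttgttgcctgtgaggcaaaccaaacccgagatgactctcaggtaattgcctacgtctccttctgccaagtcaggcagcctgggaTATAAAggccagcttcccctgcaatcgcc

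In these windows Krt7 held 4 GC boxes, Krt76 held a TATA box and a CTTTGA, and Krt18 and Krt8 held none of the 4 motifs. A GC box stood in 32.7% of all 32851 promoter windows and in 2 of 36 keratin windows (5.6%), those of Krt7 and Krt75. A TATA box stood in 12.4% of all windows and in 16 keratin windows (44.4%). AP-1 stood in 6.7% of all windows and in 2 keratin windows (5.6%), both of Krt13. CTTTGA stood in 13.8% of all windows and in 8 keratin windows (22.2%). The 36 windows belong to 35 of the keratin genes. A match of letters is a description only, and windows further away were not searched.

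Most keratin probes were dim. The 59 probes had a median processed signal of 14.9 on the normal glucose array, 32.2 on the high glucose array and 26.4 on the DKK2 array, against 101.8, 196.1 and 204.5 over all probes. By the scanner's flag, 34 of 49 keratin genes stood well above background in normal glucose (69.4%), where 80.8% of all genes did. On each of the other arrays 42 genes did (85.7%), where 87.6% and 87.0% of all genes did. The 5 keratins of hair, root sheath or stratified epithelium named Krt25, Krt26, Krt32, Krt39 and Krt90 were above background on none of the 3 arrays. Signals are not converted to amounts, so the order of signals between probes is not the order of RNA levels. The normal glucose array was dimmer as a whole, so differences were taken after each array's 75th percentile (1201, 2380 and 2417) was subtracted on the log2 scale.

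Krt18, the type I chain of the simple pair, had processed signals of 79.5 (normal glucose), 286 (high glucose) and 4211 (DKK2). The DKK2 array stood far above the other arrays. On the scaled log2 values Krt18 was higher with DKK2 than in high glucose by 3.86 ± 0.20 (technical SD), a 14.5-fold difference and rank 6 of 17825 genes compared. Against normal glucose it was higher by 4.72 ± 0.21, rank 4 of 16676 genes. Between high and normal glucose it was at 0.86 ± 0.21. It was at -0.23 in an alternative called normexp here, which starts from unprocessed spot medians, corrects the background with the normexp model and adds 50 to each signal. The unprocessed spot median showed the same order as the processed signal, at 94.0, 271 and 3554 over local backgrounds of 21.0, 26.0 and 34.0.

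Krt8, the type II partner of Krt18, was read by 1 dim probe with signals of 2.0, 3.4 and 26.4 in normal glucose, high glucose and DKK2. It was well above background with DKK2 and on neither of the other arrays. The difference is therefore a bound: the Krt8 signal with DKK2 was at least 3.6-fold higher than in high glucose and at least 1.73-fold higher than in normal glucose, against the lowest signal that any probe well above background had on the dimmer array. Its spot medians were 35.0, 39.0 and 61.0 over local backgrounds of 20.0, 28.5 and 26.0. The Krt8 probe and the Krt18 probe were thus both brightest with DKK2, but the size of the Krt8 difference could not be measured.

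Krt19, a type I simple keratin that also marks mesothelium and ducts, had signals of 102, 202 and 470. Its log2 difference was 0.00 ± 0.21 between high and normal glucose and 1.20 ± 0.20 between DKK2 and high glucose. Krt7, a type II keratin of glandular and ductal epithelia, had signals of 10.7, 31.6 and 96.1. It was at 0.57 ± 0.32 in high glucose and 1.58 ± 0.22 higher with DKK2, and with normexp the DKK2 difference was 0.73. Against normal glucose Krt7 with DKK2 was at 2.16 ± 0.31, but normexp turned that sign, to -0.68. Krt20, a keratin of gut and urothelium, had signals of 6.3, 16.1 and 18.4, was not well above background in normal glucose and was at 0.17 ± 0.28 between DKK2 and high glucose. So 3 of the 4 simple keratins measured on both of these arrays were at least 2-fold higher with DKK2. Over all genes 5.08% were, and 7.54% of genes with a mean signal under 100. With normexp Krt18 at 3.59 and Krt19 at 1.01 kept a 2-fold difference, and Krt7 did not. Krt20 lay within the technical error of 0, and Krt8 passed the flag with DKK2 alone.

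**Figure D1:**
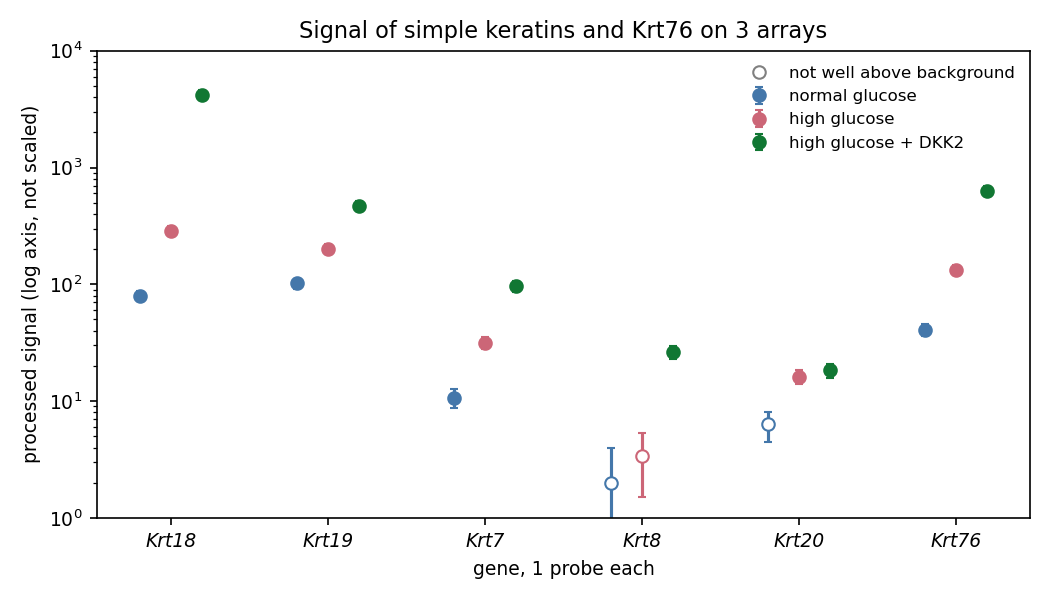
Processed signal (log axis, not scaled between arrays) of the 5 simple keratins and of Krt76 on each of the 3 arrays. Bars are the scanner's technical SD and open symbols are spots not well above background. Krt18 goes from 79.5 and 286 to 4211 with DKK2, while Krt20 stays at 18.4 or below.

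Among keratins of stratified epithelia the one that stood out was Krt76, a type II keratin of the palate and other oral epithelium. Its signals were 40.8, 133 and 628 in normal glucose, high glucose and DKK2. It was higher with DKK2 by 2.21 ± 0.21 (1.70 with normexp), rank 72 of 17825 genes, and was at 0.72 ± 0.22 between high and normal glucose (-0.67 with normexp). The type I genes Krt15, found in basal cells and the hair bulge, and Krt17, a keratin of skin appendages and stressed epidermis, had signals of 14.9, 39.0 and 84.4 for Krt15 and 17.0, 39.3 and 85.1 for Krt17. Each was higher with DKK2 by 1.09, with an error of 0.22 for Krt15 and 0.21 for Krt17, but with normexp by 0.55 and 0.61, and with cyclic loess each was at 1.00, on the edge of 2-fold. The added 50 is of the size of these signals and draws differences of dim probes together, and its share in the loss was not tested.

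The basal pair Krt5 and Krt14 also had its highest unscaled signals with DKK2. Krt5 had signals of 91.7, 180 and 336 and was at 0.87 ± 0.20 between DKK2 and high glucose. Krt14 had signals of 145, 202 and 319 and was at 0.63 ± 0.20. Against normal glucose, on scaled values, Krt14 with DKK2 was only at 0.12 ± 0.20 (-0.43 with normexp) and Krt5 at 0.86 ± 0.21 (-0.08 with normexp). Neither reached 2-fold. Of the suprabasal pair, Krt1 was at -0.60 ± 0.26 (0.01 with normexp) and Krt10 at -0.35 ± 0.20 on its brighter probe (0.01 as the mean of its probes). A second, dimmer probe of Krt10 was at 0.38 ± 0.21, the opposite sign. Krt13, a keratin of mucosal epithelia, was at 0.23 ± 0.21 on its brighter probe and at 1.23 ± 0.33 on a probe with signals of 9.8 and 23.3. Of the 10 keratins with 2 probes, both probes could be compared for 6 between DKK2 and high glucose: those of Krt2, Krt5, Krt13, Krt36 and Krt78 lay on the same side of 0, and those of Krt10 did not.

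The keratins at least 2-fold lower in any comparison, bounds included, were Krt35, Krt79, Krt78 and Krt84, of the stratified and hair groups. Krt35, a type I hair keratin, had signals of 118, 50.7 and 24.5, lowest with DKK2 although the array as a whole was the brightest. Its log2 difference was -2.21 ± 0.21 between high and normal glucose and -1.07 ± 0.24 between DKK2 and high glucose (-1.80 and -0.32 with normexp). Krt79, a type II keratin of the hair follicle and its glands, had signals of 1273, 917 and 658. Between high and normal glucose it was at -1.46 ± 0.20 (-1.37 with normexp), and it was at -0.50 ± 0.20 between DKK2 and high glucose. Krt78 had signals of 32.3, 47.5 and 31.2 on its brighter probe and was at -0.63 ± 0.23 with DKK2 against high glucose, and its dimmer probe was at -1.23 ± 0.28. Krt84, a type II hair keratin, was well above background in normal and high glucose (12.3 and 29.3) but not with DKK2 (6.9), where it was at least 3.73-fold lower than in high glucose.

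Over all members, 39 genes could be compared between DKK2 and high glucose. Of these 6 were at least 2-fold higher (15.4%, where 5.08% of all 17825 genes were): Krt18, Krt76, Krt7, Krt19, Krt15 and Krt17. In the other direction 1 was at least 2-fold lower (2.56%, where 4.85% of all genes were), and it was Krt35. Among all genes with a mean signal under 100, as most keratins had, 7.54% were higher and 5.8% lower. The median difference of the keratins was 0.18, against 0.08 over all genes, and 29 of 39 lay above 0. The simple keratins had a median of 1.39 (4 genes) and the other keratins one of 0.16 (35 genes), so the median of the family as a whole sat close to that of all genes. A further 10 keratins were left out because they were not well above background on both arrays on the probe read. Krt12, the keratin of the cornea, was among them, as 1 of its probes was above background in high glucose and the other with DKK2.

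By role, the 9 measured type I keratins of stratified epithelia had a median of 0.57 between DKK2 and high glucose, with 2 higher and 0 lower (22.2% and 0%, where 5.08% and 4.85% of all genes were). The 7 measured type II keratins of stratified epithelia had a median of 0.31, with Krt76 higher (14.3%) and none lower. The 8 hair keratins had a median of 0.24 and the 7 inner root sheath and companion layer keratins one of 0.03, with no gene higher and only Krt35 lower (12.5% of the hair group). Root sheath keratins held 3 of the lower values short of 2-fold, Krt74 at -0.66 (0.06 with normexp), Krt28 at -0.64 and Krt72 at -0.37 (0.01 with normexp). Krt23, Krt80 and Krt222, grouped as atypical or widely expressed, lay between 0.00 and 0.11. Krt222, a short keratin-related chain, read 10843, 14522 and 15085 on 1 probe and 2.2, 2.4 and 2.2 on the other.

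**Figure D2:**
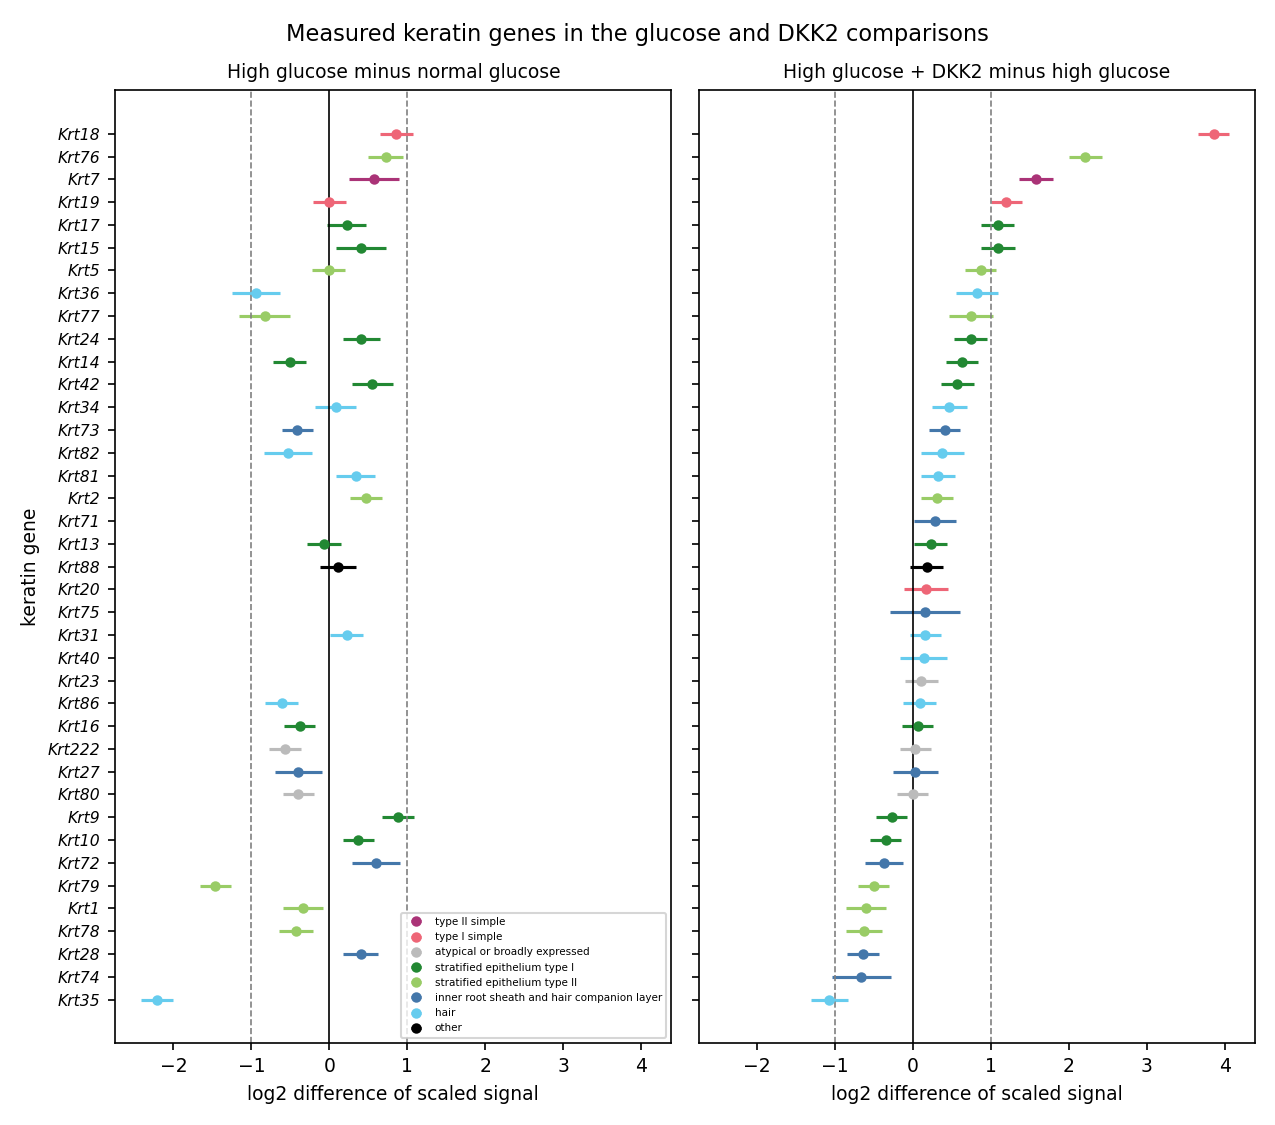
Log2 differences of scaled signal for the 39 keratin genes measured in high glucose and with DKK2, ordered by the DKK2 difference, with high minus normal glucose on the left and DKK2 minus high glucose on the right. Points are single arrays against each other, bars are technical SD, dashed lines mark 2-fold and colours mark the role groups. On the right 6 genes lie beyond the upper line and Krt35 beyond the lower one, while on the left only Krt35 and Krt79 lie beyond a line, both lower.

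Position along the chromosome was read from the order of protein-coding genes in RefSeq. Krt18 and Krt8 are direct neighbours. On the far side of Krt8 lies Krt78, at -0.63 between DKK2 and high glucose, and on the far side of Krt18 lies Eif4b, a translation initiation factor gene, at 0.61. Krt76 lies between Krt77 at 0.75 and Krt4, which was above background with DKK2 alone. On chromosome 11 Krt19 lies between Krt15, at 1.09, and Krt9, at -0.27. Apart from the Krt8 and Krt18 pair itself, the measured genes 1 step away from these keratins were between -0.63 and 1.09. The keratins of chromosome 11 had a median difference of 0.16 (20 genes) and those of chromosome 15 of 0.28 (19 genes).

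Few keratins differed by 2-fold between the glucose levels. Of 34 keratins compared between high and normal glucose, 0 were at least 2-fold higher (2.67% of all 16766 genes were) and 2 were lower (5.88%, where 5.73% of all genes were), Krt35 and Krt79. Among genes with a mean signal under 100, 3.15% were higher and 9.04% lower. The median was 0.04, against 0.09 over all genes. The largest values above 0 were 0.88 ± 0.21 for Krt9, a keratin of palm and sole skin, 0.86 for Krt18 and 0.72 for Krt76, and with normexp Krt9 was at -0.03 and the other two were below 0 as well. Krt23, an atypical type I keratin, was not well above background in normal glucose (6.3) and had signals of 44.6 in high glucose and 48.8 with DKK2, at least 2.97-fold and 3.2-fold higher than in normal glucose. With normexp the keratin median was -1.24 and that of all genes -0.26, with 20 keratins lower. That setting changes the input signal, the correction and the added 50 together, so the move cannot be put down to any of them, and an added constant by itself lowers dim probes on the array with the larger 75th percentile.

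Against normal glucose, 33 keratins could be compared with the DKK2 array. Of these 8 were at least 2-fold higher (24.2%, where 10.5% of all 16676 genes were) and 3 lower (9.09%, where 10.4% of all genes were). Among genes with a mean signal under 100, 10.4% were higher and 13.5% lower. The higher ones were the 6 named above with Krt24 at 1.15 and Krt42 at 1.12, both type I keratins of stratified epithelia, and the lower ones were Krt35 at -3.28, Krt79 at -1.96 and Krt78 at -1.06. With normexp Krt18 at 3.35 and Krt76 at 1.03 were the 2 that passed 2-fold on the higher side, Krt19 was at 0.39, and Krt7, Krt15, Krt17, Krt24 and Krt42 lay below 0. This comparison shares the DKK2 array with the second comparison and the normal glucose array with the first, so the 3 sets of values are not separate observations.

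Genes whose products work with keratins were read next, and their shares at 2-fold stand against 5.08% higher and 4.85% lower over all genes between DKK2 and high glucose. Vim, the vimentin gene of mesenchymal and endothelial cells, had signals of 137479, 271931 and 315244 and a log2 difference of 0.19 with DKK2 against high glucose. Of 15 other intermediate filament genes 2 were higher (13.3%) and 1 lower (6.67%) with DKK2 against high glucose: Bfsp2, a lens filament gene, was at 1.69, Nes, the nestin gene, at 1.36 and Synm, the synemin gene, at -1.28. Their median was 0.19. Lmnb1, which encodes a nuclear lamin, was at -0.97 and Des, the desmin gene of muscle, at -0.86.

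Desmosomes anchor keratin filaments to the cell border, and plakins link them. Of 13 measured genes of this list 3 were higher with DKK2 against high glucose (23.1%, where 5.08% of all genes were) and 0 lower, with a median of 0.30. Evpl, the envoplakin gene, had signals of 293, 673 and 2400 and was at 1.81. Pkp2, the gene of a desmosomal plakophilin, had signals of 138, 456 and 1099 and was at 1.25. Dsc2, a desmosomal cadherin gene, was at 1.07. Perp, a desmosome gene of stratified epithelia, was at 0.50, and Jup and Dsp, which encode plakoglobin and desmoplakin, were at 0.47 and 0.41.

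The cornified envelope of the epidermis had 8 measured genes with a median of -0.02 between DKK2 and high glucose, 2 higher and 0 lower (25.0% and 0%, where 5.08% and 4.85% of all genes were). Ivl, the involucrin gene, was at 1.81 and Sprr1a, a small proline-rich protein gene, at 1.38, while Krtdap was at -0.89. Of 13 measured epithelial transcription factor genes 1 was higher (7.69%), Grhl3, a grainyhead-like factor of the skin barrier, with signals of 54.7, 145 and 400 and a difference of 1.44. Their median was 0.11, with the splicing regulator genes Esrp1 at -0.93 and Esrp2 at 0.83, which stand in this list too. Of 10 genes for keratin binding and turnover 1 was higher, Trim29 at 1.03, and the median was 0.04. In high against normal glucose none of the genes in these 5 lists was higher, and 3 were lower, where 2.67% and 5.73% of all genes were: Casp14 at -1.31 and Tgm1 at -1.26, both cornified envelope genes, and Ywhaz, a 14-3-3 protein gene, at -1.21.

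**Figure D3:**
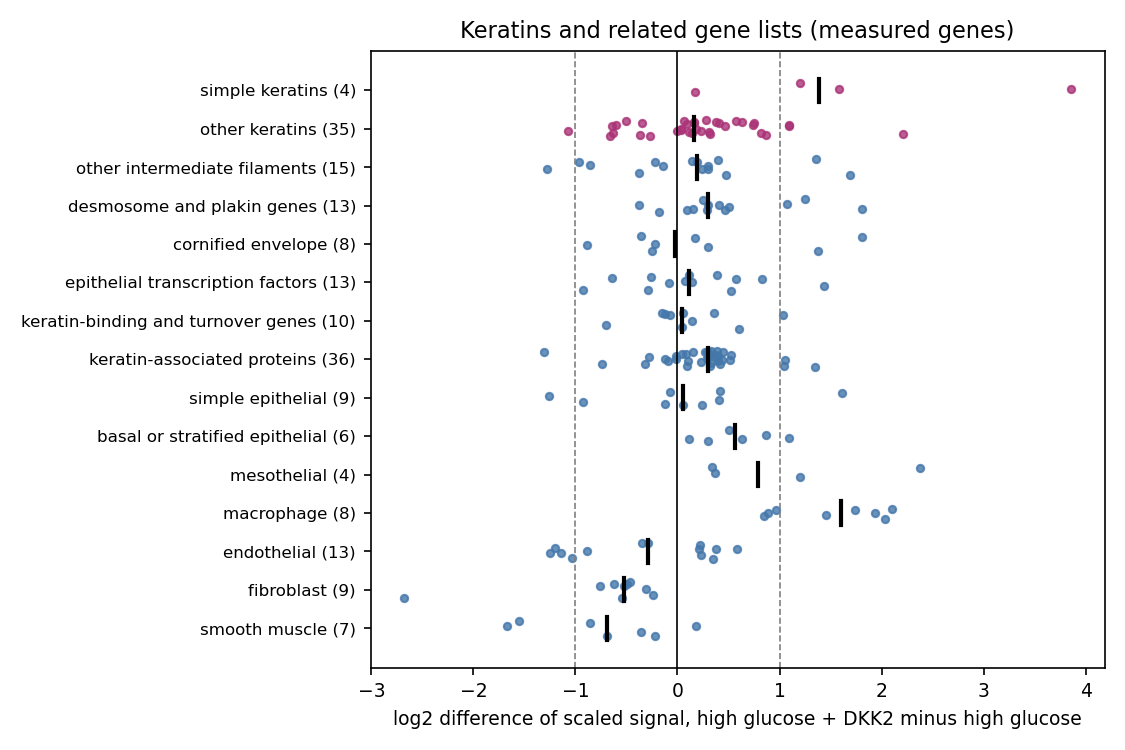
Log2 difference of scaled signal between DKK2 and high glucose for measured genes of the keratin family, of lists of keratin partners and of cell type marker lists, with the number measured in brackets. Each point is 1 gene, black bars are medians and dashed lines mark 2-fold. Macrophage markers all lie above 0, fibroblast markers all lie below 0, and Krt18 lies beyond all other points at 3.86.

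Markers of other cell types moved with the DKK2 array, and their part in the keratin values was not tested. Of 14 endothelial markers 12, 14 and 13 were above background in normal glucose, high glucose and DKK2, and their summed scaled level was 5.94, 6.38 and 6.89 (1 is the array's 75th percentile). Kdr, the gene of a VEGF receptor, made up most of that sum, with signals of 3648, 9128 and 10901. With DKK2 against high glucose 0 of 13 measured were higher, 4 were lower (30.8%) and the median was -0.29. Over all genes 5.08% were higher and 4.85% lower. The lower ones were Cldn5 at -1.25, Icam2 at -1.20, Tek at -1.14 and Flt1 at -1.03, so the sum and the median differ in sign. Erg, an endothelial transcription factor gene, passed the flag on the high glucose array alone (8.7). Of 12 simple epithelial markers 5, 9 and 10 were above background and the summed level was 0.43, 1.12 and 1.23. Spint2, a protease inhibitor gene, carried that increase, with signals of 85.1, 1857 and 2222 and a difference of 3.46 between high and normal glucose and 0.24 between DKK2 and high glucose. The median of the 9 measured markers was 0.05 with DKK2, with 1 higher and 1 lower (11.1% each, beside the 5.08% and 4.85% of all genes). Epcam, the epithelial adhesion molecule gene, had signals of 4.5, 23.2 and 9.8 and was the lower one at -1.26, and Cdh1, the E-cadherin gene, of 3.9, 6.7 and 9.9, while Cldn3 and Elf3 were above background on no array. Ocln, the occludin gene of tight junctions, had signals of 1.7, 10.3 and 31.8 and was the higher one at 1.61, while Esrp1 was at -0.93 and Cldn7 at -0.07.

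Of 8 mesothelial markers 3, 5 and 4 were above background, and the summed level was 0.65, 0.79 and 3.64. Msln, the mesothelin gene, made up most of that sum on each array. It had signals of 624, 1540 and 8159 and was 2.38 higher with DKK2 than in high glucose. Wt1, Lrrn4 and Bnc1 were above background on no array and Upk3b in high glucose alone. Krt19 is itself in this list. The 8 basal or stratified epithelial markers, of which Krt5, Krt14 and Krt15 are members here, had 6, 6 and 7 above background and a summed level of 8.66, 8.91 and 11.9. Perp and Trp63 made up nearly all of that sum, with signals of 5954, 15776 and 22594 for Perp and 4142, 4931 and 5420 for Trp63, so it hardly reads the keratins in the list. Macrophage markers, 8 of 8 above background on each array, summed to 2.36, 2.72 and 7.64. Of these 8, 5 were higher with DKK2 against high glucose (62.5%, where 5.08% of all genes were). All 9 fibroblast markers and all 7 smooth muscle markers were above background on each array. Their sums were 583, 534 and 390 for fibroblasts and 61.8, 41.4 and 25.0 for smooth muscle. Acta2 and Tagln made up most of the smooth muscle sum, and Acta2 had signals of 49587, 50085 and 15958. Between high and normal glucose the smooth muscle median was 0.35, although the sum fell. With DKK2 against high glucose that median was -0.69, with 2 of 7 lower (28.6%). The fibroblast median was -0.52, with 1 of 9 lower (11.1%). Neither list held a higher gene there, and over all genes 4.85% were lower.

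How far each keratin value depended on the processing differed between the genes. Krt18 was between 3.59 and 3.88 with DKK2 against high glucose in the main setting and in the alternatives that could read it, Krt76 between 1.70 and 2.24. Krt19 stayed between 1.01 and 1.22, while Krt7, Krt15 and Krt17 were under 2-fold with normexp. Between high and normal glucose the values of Krt18, Krt76, Krt7, Krt15 and Krt17 lay on both sides of 0, with normexp below it.

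**Figure D4:**
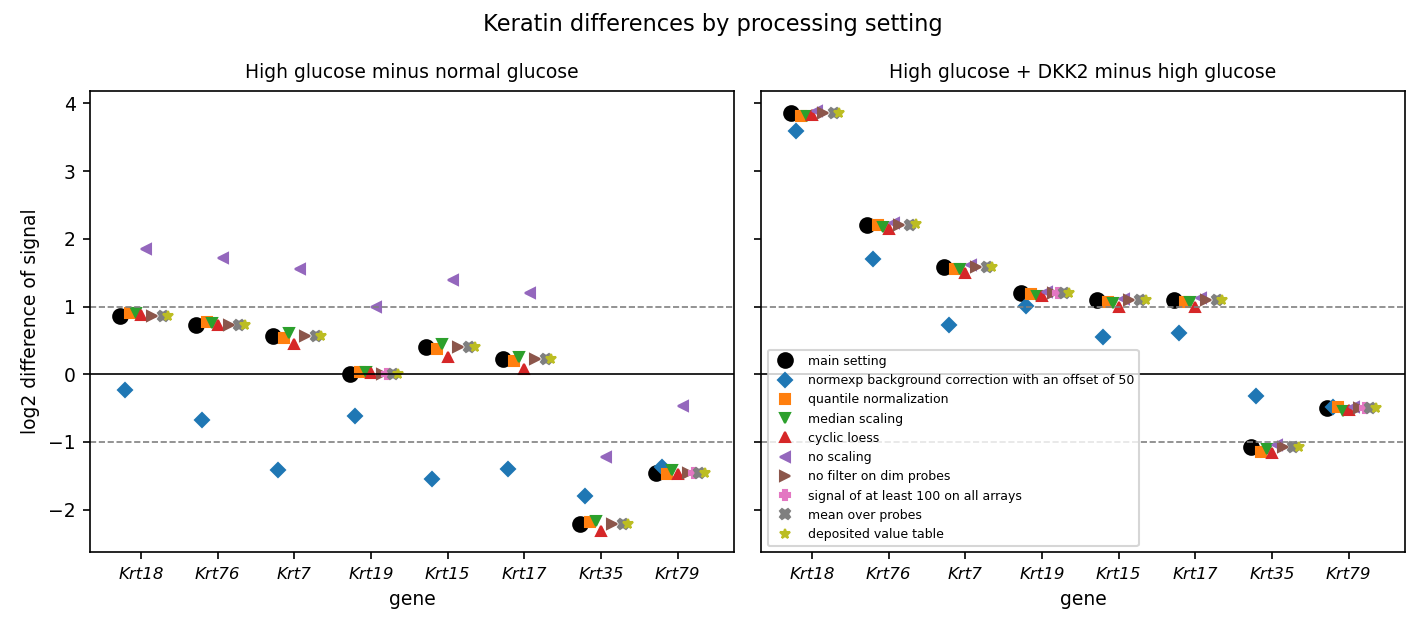
Log2 differences of 8 keratins under the main setting (black circles) and 9 alternatives, with high minus normal glucose on the left and DKK2 minus high glucose on the right. Dashed lines mark 2-fold. On the right Krt18 and Krt76 stay above 1 in each alternative shown for them, while on the left normexp (blue diamonds) and no scaling (purple triangles) put the same gene on both sides of 0, except Krt35 and Krt79, which stay below it.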

How the data were processed

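Labelled RNA was hybridised to one-colour Agilent mouse arrays, and each sample's title gave its group. Per the file headers, the spots were quantified with Feature Extraction 11.5.1.1 on a design built on mm9, and the deposited files hold a background-corrected intensity per spot on a linear scale, with quality flags. The deposited value table holds the same intensity, within 1% for 99.8% of probes. Control spots (1377 per array) and 110 to 136 outlier spots per array were removed. Saturated spots numbered 0. Values are log2 of the processed signal minus the array's 75th percentile over probes. A probe counted as above background if the scanner flagged 50% or more of its spots, and the negative control spots had a median signal of 1.7 to 1.8.

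Probes were named through accessions in a RefSeq table of build GRCm38.p6, used for names, gene order and promoter windows: 27508 probes matched 1 symbol and 11921 are not named here. Of 50 keratin symbols there, Krt83 alone matched no probe. Whether the probes tell closely related keratins apart was not tested. Each gene was read on the brightest of its probes that passed on any array, and a difference was computed if that probe passed on both arrays compared. Otherwise a bound was given. Technical errors came from the scanner's error model. Among repeated probes with a signal under 100 the median spot SD was 0.174, 0.18 and 0.175 log2 units.

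With 1 array per condition no test was possible, and "higher" or "lower" means at least 2-fold. The members, role groups, lists and the rule for named genes (all simple keratins, and other keratins at least 2-fold apart in any comparison, with up to 6 genes per list, those with the largest differences) were chosen with earlier results of these data known. Outside that rule, Krt1, Krt2, Krt4, Krt5, Krt9, Krt10, Krt12, Krt13, Krt14, Krt28, Krt36, Krt72, Krt74, Krt77, Krt80, Krt222, Eif4b, Vim and the marker genes were named after their values were seen. The counting was tested on simulated data. Alternatives were normexp (offset 50, on unprocessed median signals), quantile, median and cyclic loess normalization, no scaling, no filter, a signal of at least 100, averaging of probes, the deposited value table, and thresholds of 1.5-fold and 3-fold. Computation used limma 3.58.1 under R 4.3.3, and pandas 2.3.3 and numpy 2.4.6 under Python 3.11.15.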

Additional observations from a re-analysis of the deposited data

How the results depend on the processing

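Of the keratin counts recomputed under the alternatives 42 stayed within 1.5 times the main count and 30 did not. Some of these counts are no check on the processing. The deposited value table holds the same intensity, and without the filter all 49 keratins count as above background. A lower fold threshold cannot reduce a count, and a higher one cannot raise it. For DKK2 against high glucose, 6 keratins were higher and 1 lower in the main setting. There were 3 higher and 0 lower with normexp, 1 and 0 with a signal of at least 100 on all arrays, 11 and 5 at 1.5-fold and 2 and 0 at 3-fold, and 4 lower without the filter. These are of 39 keratins, or 9 with that stricter signal and 49 without the filter. Over all genes there were 505 and 478 of 17827 with normexp, 2330 and 2012 of 17825 at 1.5-fold and 284 and 321 at 3-fold. Without the filter there were 1307 and 1350 of 20876, and with the stricter signal 394 and 492 of 12165. For DKK2 against normal glucose (8 higher, 3 lower), there were 2 and 16 with normexp, 20 and 1 without scaling, 13 and 7 without the filter, 1 and 1 with the stricter signal, and 3 higher at 3-fold. These are of 33 keratins, or 9 and 49 as above. Over all genes there were 938 and 4005 of 16665 with normexp and 9491 and 415 of 16676 without scaling. There were 2674 and 2346 of 20876 without the filter and 1059 and 1138 of 12165 with the stricter signal. At 3-fold 574 of all genes were higher. For high against normal glucose (0 higher, 2 lower), there were 20 lower with normexp, 17 higher and 1 lower without scaling, 4 and 6 without the filter, 4 and 5 at 1.5-fold, 1 lower at 3-fold and 1 lower with the stricter signal. That stricter signal kept 9 keratins on each array, where the main flag kept 34, 42 and 42. It could not read Krt18 or Krt76, which are under 100 in normal glucose. Krt7 between DKK2 and normal glucose went from 2.16 to -0.68 with normexp, and the cause was not tested. Among recomputed values of simple keratins this was the 1 reversal of a 2-fold difference, while 69 moved by less than the technical error and 13 by more. Each simple keratin has 1 probe. Averaging of probes, dropping the filter and the stricter signal therefore had to return the main value where they gave one. Those values, and the ones from the deposited value table, are among the 69 and are no check. Krt8, given only as a bound, was at 2.96 between DKK2 and high glucose without the filter. Without scaling the median of all genes was 1.07 between high and normal glucose, against 0.09. With DKK2 against high glucose the keratin calls were 85.7% higher ones in the main setting, 100% with normexp, 66.7% without the filter and 68.8% at 1.5-fold. With DKK2 against normal glucose they were 72.7% in the main setting, 60.0% with cyclic loess, 95.2% without scaling and 11.1% with normexp. Between high and normal glucose they were 0% in the main setting, 94.4% without scaling, 40.0% without the filter and 44.4% at 1.5-fold. In the main setting the calls over all genes in these 3 comparisons, in this order, were 905 higher and 865 lower, 1744 and 1727, and 448 and 960. With cyclic loess they were 1391 higher and 2030 lower in the second. Without scaling most calls over all genes were higher ones too, so the high keratin shares there were not particular to keratins. No paired analysis was possible because each condition had 1 array. Signals near background limit the hair and root sheath keratins, and most keratin differences rest on 1 probe.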

Other observations

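Keratin-associated proteins form the matrix around hair keratins and were not part of the family read above. Of 51 such genes with a probe 36 were measured in high glucose and with DKK2, with a median difference of 0.30. Of these 3 were higher (8.33%) and 1 lower (2.78%), where 5.08% and 4.85% of all genes were, and 7.54% and 5.8% of genes with a mean signal under 100. Krtap10-4 had signals of 249, 222 and 576 in normal glucose, high glucose and DKK2 and was at 1.35 between DKK2 and high glucose, and Krtap4-2 was at -1.31. Krtap12-1 had signals of 248, 92.1 and 56.1 and was at -2.42 between high and normal glucose.

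Among keratins with a letter in their name, Krt6a, a type II keratin of wounded epidermis, had signals of 58.5, 25.6 and 21.2 and was at -2.18 between high and normal glucose and -0.30 between DKK2 and high glucose. Its near copy Krt6b had signals of 52.6, 100.1 and 123 and was at -0.06 and 0.28 in these comparisons. Krt33a, a type I hair keratin, had signals of 8.4, 14.4 and 40.2 and was 1.46 higher with DKK2 than in high glucose. These genes have closely related copies, and whether their probes tell the copies apart was not tested. The same limit holds for the probes of the keratin members read above.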
